A study of Mus musculus with 3 samples.

Results

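The 51 genes described here carry cells through G2 and mitosis. They were taken by symbol from a list of named genes. The rule uses no measured value, although the list was drawn up with earlier results of these data known. All 51 were found by symbol among 22658 gene models, and all 51 were among the 7915 genes that were measured, that is, had a mean of at least 0.5 RPKM (reads per kilobase of gene model per 1000000 reads) over the 3 libraries. Their nascent RNA was followed in NB490, a mouse pancreatic cancer cell line. Every group was the same puromycin-selected line with a short hairpin RNA (shRNA) that doxycycline switches on and that targets PDX1, a transcription factor of pancreas development. The groups were cells given doxycycline for 48 h, cells that had grown out during more than 3 weeks of it, and uninduced cells, with 1 library each. Doxycycline in cells lacking the shRNA was not analysed here, so the effect of the drug and that of the hairpin cannot be told apart. In Bru-seq, cells take up bromouridine, here 2 mM for 30 min, and the labelled RNA is captured and sequenced, so that a gene's reads report RNA made in that window.

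The proteins of these genes start mitosis, build the spindle, hold chromosomes to it until all are attached, and then separate the daughter cells. Their transcription is periodic: it is held down early in the cell cycle by the DREAM complex and driven in G2 by the MuvB core together with B-MYB and then FOXM1. MuvB binds a promoter element called the cell cycle genes homology region (CHR), and the factor NF-Y binds CCAAT boxes that lie upstream of it in many of these promoters. In a growing culture, their summed transcription is commonly read as a sign of dividing cells.

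RefSeq promoter windows (mouse build GRCm38.p6, 250 bases before to 50 after the start) were matched by symbol for 42 of the 51 genes, which gave 44 windows. The stretches shown are the 150 bases before the start, 5′ to 3′ on the strand of the gene, for CDK1 and its B-type cyclins and for several of the genes whose transcription differed most between libraries. Capitals mark each CCAAT box, which reads ATTGG where it lies on the opposite strand. They also mark 2 forms of the CHR core: TTTGAA, which reads TTCAAA where it lies on the opposite strand, and the palindrome TTTAAA.
Cdk1 (chr10:69352913-69353062, minus strand): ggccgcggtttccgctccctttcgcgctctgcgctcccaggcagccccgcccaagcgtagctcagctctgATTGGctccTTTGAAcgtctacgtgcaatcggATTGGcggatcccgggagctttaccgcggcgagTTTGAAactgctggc
Ccnb1 (chr13:100786487-100786636, minus strand): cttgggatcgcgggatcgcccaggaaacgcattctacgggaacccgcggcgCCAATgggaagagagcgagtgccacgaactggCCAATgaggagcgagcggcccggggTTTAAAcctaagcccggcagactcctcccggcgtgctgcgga
Ccnb2 (chr9:70421555-70421704, minus strand): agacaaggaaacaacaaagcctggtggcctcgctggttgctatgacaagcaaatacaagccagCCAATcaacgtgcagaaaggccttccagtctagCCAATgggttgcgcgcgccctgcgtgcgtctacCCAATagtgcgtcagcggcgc
Ccnf (chr17:24251410-24251559, minus strand): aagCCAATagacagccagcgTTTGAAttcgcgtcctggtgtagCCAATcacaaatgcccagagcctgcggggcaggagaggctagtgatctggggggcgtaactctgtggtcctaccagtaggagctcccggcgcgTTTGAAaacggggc
Cdc20 (chr4:118437344-118437493, minus strand): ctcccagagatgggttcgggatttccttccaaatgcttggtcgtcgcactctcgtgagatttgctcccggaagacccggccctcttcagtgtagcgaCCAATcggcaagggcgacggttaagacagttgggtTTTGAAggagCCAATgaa
Cdc25b (chr2:131186798-131186947, plus strand): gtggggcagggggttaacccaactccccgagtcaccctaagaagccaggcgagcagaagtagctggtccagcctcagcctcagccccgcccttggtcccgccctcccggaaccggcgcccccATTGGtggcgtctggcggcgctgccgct
Birc5 (chr11:117849087-117849236, plus strand): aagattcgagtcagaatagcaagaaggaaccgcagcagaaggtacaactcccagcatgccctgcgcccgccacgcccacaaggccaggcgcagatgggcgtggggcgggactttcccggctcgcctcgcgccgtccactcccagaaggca
Kif23 (chr9:61946800-61946949, minus strand): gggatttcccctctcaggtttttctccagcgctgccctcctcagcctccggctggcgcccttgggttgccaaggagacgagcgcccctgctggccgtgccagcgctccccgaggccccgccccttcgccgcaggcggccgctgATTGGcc
The stretch before Ccnb2 holds 3 CCAAT boxes, and that before Ccnb1 holds 2 with a TTTAAA closer to the start. The stretches before Cdc20, Ccnf and Cdk1 each hold CCAAT boxes and TTTGAA. The stretch before Cdc25b or Kif23 holds a lone ATTGG, and that before Birc5 holds none of the marked letters. Matches farther upstream or after the start are not shown, so a stretch without a CHR form does not mean a window without it. Outside the stretches, the windows of Ccnb2 and Kif23 hold TTTGAA, that of Birc5 holds TTTAAA and that of Cdc25b holds TTCGAA, a further CHR form.

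Over the full 300-base windows, searched on both strands, TTTGAA was present in 34 of the 44 windows of the G2 and mitosis genes (77.3%), against 17.9% of all 32851 RefSeq promoter windows and 11.9% of the 7205 windows of measured genes. Within the stretch from 100 bases before the start to the window's end, the shares were 72.7%, 8.01% and 4.87% in the same order. At least 1 CCAAT was present in 75% of the windows of these genes, against 37.4% of all windows and 38.6% of those of measured genes, and at least 2 were present in 52.3%, against 11.7% and 14.9%. TTTAAA was present in 25% of them, against 13.2% and 8.92%, and TTCGAA, another CHR form, in 9.09%, against 1.56% and 2.28%. The E2F core GCGGGAA, an element of many S phase promoters, was present in 2.27% of the windows of these genes, against 4.6% and 9.67%. TTTGAA and TTTAAA do not share all their letters, so a match to one is not a match to the other, and CCAAT shares none of its matches with them. A match is a run of letters and no measurement of binding.

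**Figure D1:**
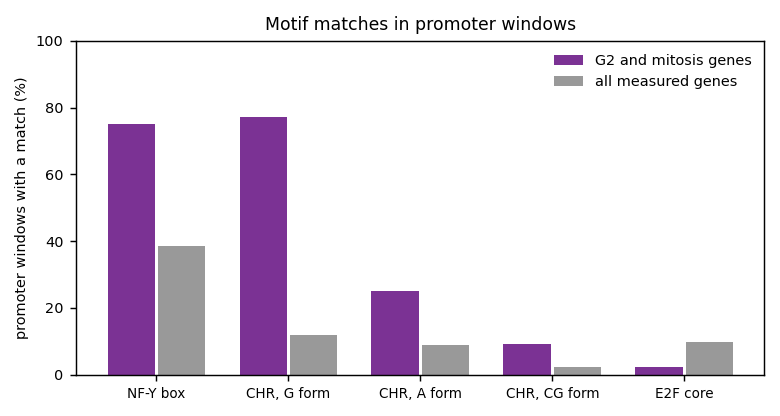
Share of 300-base promoter windows (percent, vertical axis) that hold each motif on either strand, with purple bars for the G2 and mitosis genes and grey bars for all measured genes. The G form of the CHR reaches 77.3% of the windows of the G2 and mitosis genes, against 11.9% of those of all measured genes, whereas the E2F core stands at 2.27% against 9.67%.

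Read totals behind the RPKM values were 51006774 for uninduced, 48418864 for 48 h and 41632296 for grown-out cells. Nascent RNA of Pdx1, the hairpin's target, stood at 1.59 RPKM in the uninduced, 1.05 RPKM in the 48 h and 1.41 RPKM in the grown-out library. That was 1.51-fold lower at 48 h than in uninduced cells (95% interval 1.28 to 1.77) and 1.12-fold lower in grown-out than in uninduced cells (0.961 to 1.30, which includes no change). A hairpin acts on finished mRNA, so nascent RNA of its target is a limited check of the labels. Of 10 duct and epithelium markers 8 were measured, among them Krt19, Krt7, Krt8 and Krt18, and their summed level was 157.6 RPKM in the uninduced, 90.5 RPKM in the 48 h and 88.4 RPKM in the grown-out library. Most of that difference was in Spp1, at 98.6, 40.0 and 32.3 RPKM in that order; without it the sum was 59.0, 50.5 and 56.1 RPKM. Epcam and Sox9, both epithelial markers, were below the minimum. None of 9 acinar, 8 endocrine, 5 endothelial or 7 fibroblast markers was measured, and 5 acinar, 6 endocrine and 2 fibroblast markers, among them Cpa1, Ins2 and Pdgfrb, were listed at 0 in all 3 libraries. Of 7 immune markers only Cd68 and Cd14 were measured, with a sum over all 7 of 2.42, 1.37 and 1.37 RPKM in that library order, and Lyz2 was listed at 0. That difference was in Cd14, at 1.42, 0.451 and 0.469 RPKM, and without it the sum was 0.996, 0.920 and 0.901 RPKM. The part of the shifts in Spp1 and Cd14 in the results below was not tested.

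Together the G2 and mitosis genes held 297193 reads for uninduced, 267202 for 48 h and 255329 for grown-out cells, or 5827, 5519 and 6133 per 1000000 reads of the library. The summed share was thus lowest at 48 h and highest in grown-out cells. Genes with many reads weigh most in this sum, and the median RPKM of the group, given below, was not highest in grown-out cells. In bulk libraries such as these, fewer cells passing through G2 and less new RNA per cell cannot be told apart. The median gene of the group held 3114, 2810 and 3087 reads in that order, against 2038, 1896 and 1667 reads for the median measured gene. Cdc20 had the fewest reads, 272.3, 198.2 and 257.0, and Ect2 the most, 34751, 30011 and 29687.

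Per length of gene model, the median G2 and mitosis gene had 3.32 RPKM in the uninduced, 3.03 RPKM in the 48 h and 3.02 RPKM in the grown-out library, against 1.64, 1.60 and 1.64 RPKM over all measured genes. By mean level, 39 of the 51 lay above the median measured gene, and they ran between the 28.9th percentile (Kif2c, a microtubule-depolymerising kinesin) and the 98.7th percentile (Top2a, the topoisomerase that untangles sister chromatids). The levels of Top2a and of the chromokinesin gene Kif4 are set against deposited lengths of 5217 and 4712 bp. Their spans are 31243 and 101207 bp, and another model on the same strand covers each span in full. Which part of the span was counted was not determined. Those 2 levels are therefore not comparable with the other genes. Their ratios between libraries rest on that part only, with the same length in each library. Next in level came Ect2 (12.03, 10.9 and 12.6 RPKM in uninduced, 48 h and grown-out cells), Kif20b (10.1, 10.3 and 10.6 RPKM) and Ccnb1 (8.57, 9.08 and 9.57 RPKM). The median span of 22989 bp was close to the 23593 bp of all measured genes.

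**Figure D2:**
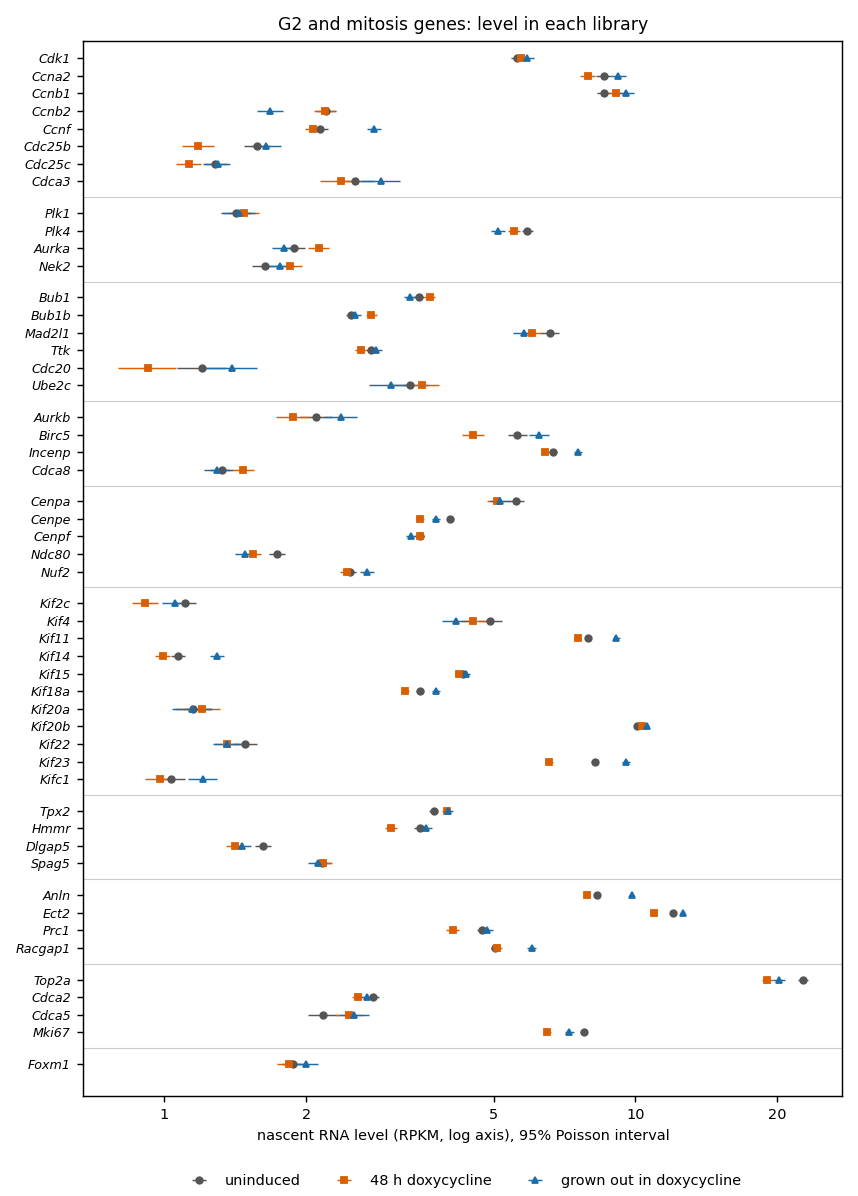
Level of each of the 51 genes in the 3 libraries (RPKM, log axis), ordered by role, with circles for uninduced, squares for 48 h and triangles for grown-out cells and bars for 95% Poisson intervals. Levels differ far more between genes, from Kif2c near 1 RPKM to Ect2 near 12 RPKM on their own lengths, than between libraries for any one gene.

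After 48 h of doxycycline, most G2 and mitosis genes had a slightly lower RPKM than in uninduced cells. None shifted by a large factor. RPKM is scaled to each library's read total, so every ratio compares shares of the labelled RNA and not amounts per cell. Here a gene is called higher or lower beyond counting error where the 95% interval of its RPKM ratio, from the read counts, leaves out no change. By that rule 26 of the 51 genes were lower (51.0%, against 30.0% of all measured genes) and 9 were higher (17.6%, against 30.1%). The other 16 were not separated from no change. The median log2 ratio was -0.07, against 0.00 over all measured genes, with a range from -0.40 to 0.18. On the log2 scale, 20% lower and 25% higher are changes of equal size. Only Cdc25b and Cdc20 were at least 20% lower (10.0% of all measured genes were), none was at least 25% higher (3.03%), and none passed 2-fold in either direction (0.745%). With 1 library per condition there is no replicate check, no p-value is given, and every interval covers counting error only, to which repeat reads of the same molecule would add. The genes of this group hold more reads than the typical gene, so their intervals are narrower and a share beyond counting error is reached at smaller folds.

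Grown-out cells transcribed most of these genes within a small range of the uninduced level, with more of them above it than below. Beyond counting error, 19 of the 51 were higher (37.3%, against 33.6% of all measured genes) and 12 were lower (23.5%, against 29.5%). Both shares lay near those over all measured genes. The median log2 ratio was 0.03, against 0.01 over all measured genes, with a range from -0.38 to 0.37. Ccnf alone was at least 25% higher (7.04% of all measured genes were) and Ccnb2 alone at least 20% lower (9.36%). None passed 2-fold (0.872%).

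Set directly against 48 h cells, more of the G2 and mitosis genes had a higher RPKM in grown-out cells than a lower one. Beyond counting error, 29 of the 51 were higher (56.9%, against 35.6% of all measured genes) and 8 were lower (15.7%, against 32.0%). The median log2 ratio was 0.08, against 0.01 over all measured genes, with a range from -0.37 to 0.57. Kif23, Birc5, Ccnf, Cdc25b, Cdc20, Kif14 and Aurkb were at least 25% higher, 7 of 51 and a share close to the 12.6% of all measured genes. Ccnb2 was the only one at least 20% lower (8.69% of all measured genes were), and none passed 2-fold (1.02%). The comparisons of grown-out and of 48 h cells with uninduced cells share the uninduced library, and this one shares a library with each of them, so their counts are not independent.

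The spread among the 51 genes was narrow. The SD of the log2 ratio across them was 0.14 at 48 h, 0.15 in grown-out against uninduced cells and 0.20 in grown-out against 48 h cells, against 0.26, 0.29 and 0.31 over all measured genes. Among genes with a mean of at least 2 RPKM, where low counts weigh less, the SD was 0.12, 0.16 and 0.19 over 36 of the G2 and mitosis genes, against 0.24, 0.25 and 0.28 over 3272 genes. At 48 h 96.1% of the 51 lay between 20% lower and 25% higher than the uninduced level (86.2% of all measured genes). In grown-out against uninduced cells the share within those limits was again 96.1% (82.6%), and in grown-out against 48 h cells it was 84.3% (77.7%). The 48 h library was the lowest of the 3 for 30 of the 51 genes (58.8%, against 34.8% of all measured genes), and the grown-out library the highest for 28 (54.9%, against 38.1%).

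**Figure D3:**
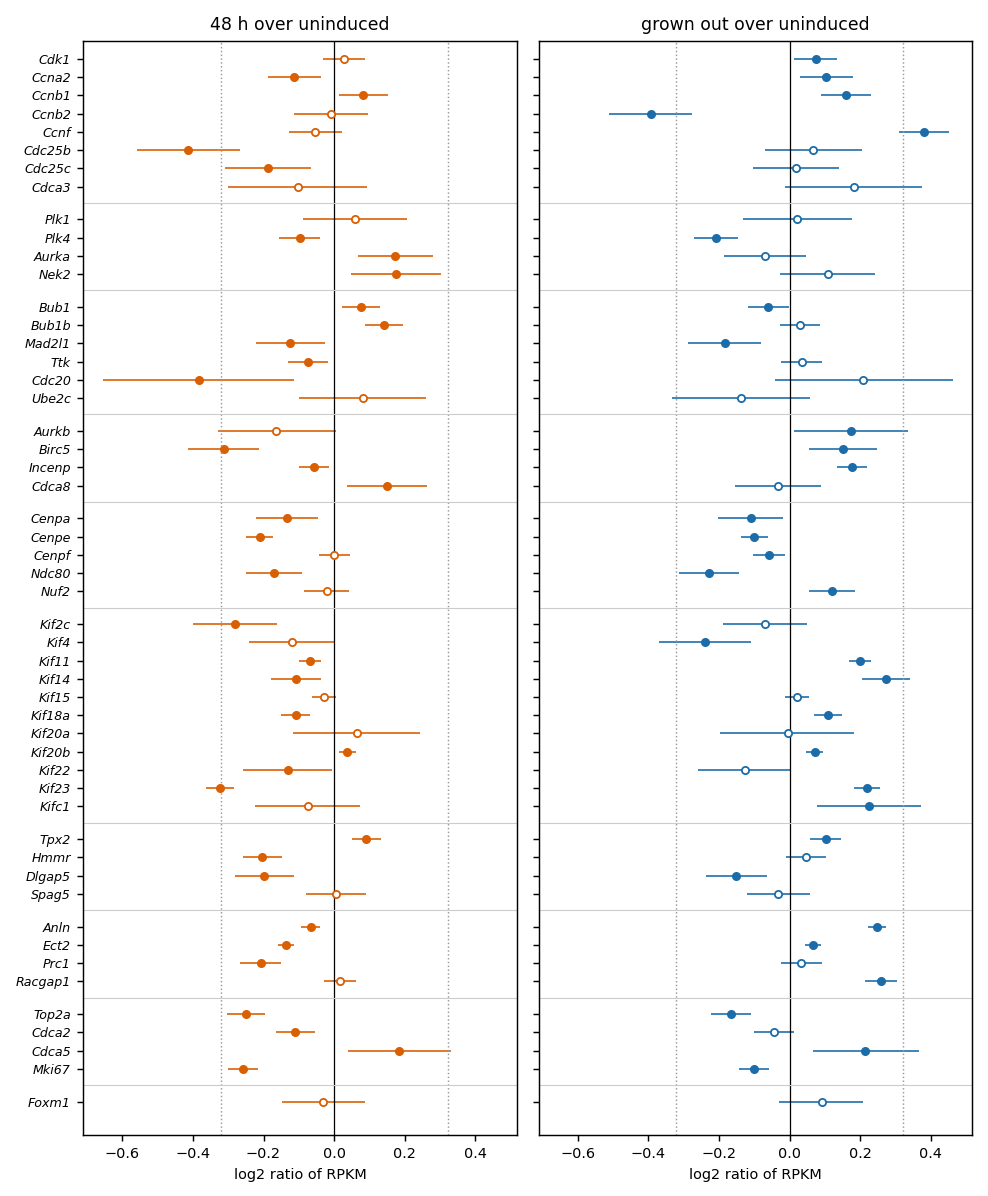
Log2 RPKM ratio of each of the 51 genes (horizontal axis), at 48 h against uninduced cells on the left and in grown-out against uninduced cells on the right, with 95% counting intervals. Filled points have an interval that leaves out no change, open points do not, and dotted lines mark 20% lower and 25% higher. More of the 48 h points lie left of 0 beyond counting error (26 lower, 9 higher), and more of the grown-out points lie right of it (19 higher, 12 lower).

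Among the genes that control entry into mitosis, Cdk1, the kinase that drives it, stood at 5.60, 5.71 and 5.89 RPKM in uninduced, 48 h and grown-out cells. Its ratio at 48 h was 1.02 (0.979 to 1.06), and in grown-out against uninduced cells it was 1.05 (1.01 to 1.10). Ccnb1, which encodes the main B-type cyclin partner of CDK1, was higher in each comparison by a small amount, 1.06-fold at 48 h (1.01 to 1.11) and 1.12-fold in grown-out against uninduced cells (1.06 to 1.17). The genes for CDK1 and this cyclin thus did not share the lower values that most of the group had at 48 h.

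Ccnb2, which encodes another B-type cyclin, was lower in grown-out cells. It stood at 2.20, 2.19 and 1.68 RPKM in uninduced, 48 h and grown-out cells, so that it was 1.31-fold lower in grown-out than in uninduced cells (1.21 to 1.43) and 1.30-fold lower in grown-out than in 48 h cells (1.20 to 1.42). The level of Ccnb2 relative to Ccnb1 was 0.257 in uninduced cells (0.242 to 0.273), 0.241 at 48 h (0.227 to 0.257) and 0.175 after growing out (0.163 to 0.188). The interval in grown-out cells lay below those of the other libraries, which overlapped each other.

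Ccnf, which encodes cyclin F, a substrate-binding subunit of an SCF ubiquitin ligase active in G2, had 2.14 RPKM in the uninduced, 2.07 RPKM in the 48 h and 2.79 RPKM in the grown-out library. It was 1.30-fold higher in grown-out than in uninduced cells (1.24 to 1.37) and 1.35-fold higher than in 48 h cells (1.28 to 1.42); its ratio at 48 h included no change. A microRNA model lies inside Ccnf on the same strand, and its deposited length was 28100 of 28178 bp.

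Cdc25b, a phosphatase that activates CDK1 at the start of mitosis, had 1.57 RPKM in the uninduced, 1.18 RPKM in the 48 h and 1.65 RPKM in the grown-out library. It was 1.33-fold lower at 48 h than in uninduced cells (1.20 to 1.47), the largest fold of the 51 genes in that comparison, and 1.39-fold higher in grown-out than in 48 h cells (1.26 to 1.55). Its relative Cdc25c was 1.14-fold lower at 48 h (1.05 to 1.24), and its ratio was 1.01 in grown-out against uninduced cells (0.931 to 1.10). For both phosphatase genes the 48 h library was the lowest.

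Ccna2, the cyclin of S phase and G2, was 1.08-fold lower at 48 h (1.03 to 1.14) and 1.07-fold higher in grown-out than in uninduced cells (1.02 to 1.13). Cdca3, an adaptor of mitotic entry, was 1.22-fold higher in grown-out than in 48 h cells (1.06 to 1.399) and was not separated from the uninduced level in either comparison. Of the 8 entry genes, 3 were lower at 48 h beyond counting error (37.5%, near the 30.0% of all measured genes). At 48 h 1 was higher (12.5%, against 30.1%). In grown-out against uninduced cells 4 were higher (50%, against 33.6%) and 1 lower (12.5%, against 29.5%).

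At 48 h, 2 of the 4 mitotic kinase genes were higher than in uninduced cells, 1 was lower and 1 was not separated from no change (30.1% higher and 30.0% lower over all measured genes), with a median log2 ratio of 0.11. Aurka, the kinase of centrosome maturation and spindle building, had 1.89 RPKM in the uninduced, 2.13 RPKM in the 48 h and 1.797 RPKM in the grown-out library. It was 1.13-fold higher at 48 h than in uninduced cells (1.05 to 1.21) and 1.18-fold lower in grown-out than in 48 h cells (1.09 to 1.28). Nek2, a kinase of centrosome separation, was 1.13-fold higher at 48 h (1.03 to 1.23).

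Plk1, the polo-like kinase of many mitotic steps, had 1.42, 1.48 and 1.44 RPKM in uninduced, 48 h and grown-out cells, and none of its ratios left out no change. Plk4, which starts centriole duplication, had 5.90, 5.51 and 5.11 RPKM in that order and was 1.15-fold lower in grown-out than in uninduced cells (1.11 to 1.21). In grown-out against 48 h cells, the 4 kinase genes were all below the 48 h level by their ratios, as were 3837 of the 7915 measured genes. Plk4 and Aurka were lower beyond counting error (50%, against 32.0% of all measured genes).

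Of the spindle checkpoint genes, Bub1 and Bub1b were higher at 48 h, 1.05-fold (1.02 to 1.10) and 1.10-fold (1.06 to 1.14). Mad2l1, which encodes a soluble protein of the checkpoint, had 6.58, 6.04 and 5.79 RPKM in uninduced, 48 h and grown-out cells. It was 1.09-fold lower at 48 h (1.02 to 1.17) and 1.14-fold lower in grown-out than in uninduced cells (1.06 to 1.22). The checkpoint kinase gene Ttk was 1.05-fold lower at 48 h (1.01 to 1.10). The checkpoint genes thus did not share a direction at 48 h, and every ratio lay between 20% lower and 25% higher.

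Cdc20, the activator of the anaphase-promoting complex (APC/C) that the checkpoint holds back, had 1.20 RPKM in the uninduced, 0.921 RPKM in the 48 h and 1.39 RPKM in the grown-out library. It was 1.30-fold lower at 48 h than in uninduced cells (1.08 to 1.57) and 1.51-fold higher in grown-out than in 48 h cells (1.249 to 1.83), the largest fold among the 51 genes in any comparison and the one with the fewest reads. Ube2c, the ubiquitin-conjugating enzyme of the APC/C, had 3.32, 3.52 and 3.02 RPKM in that order and was 1.16-fold lower in grown-out than in 48 h cells (1.02 to 1.33). The level of Cdc20 relative to Ube2c was 0.361 in uninduced cells (0.311 to 0.419), 0.262 at 48 h (0.221 to 0.309) and 0.460 after growing out (0.391 to 0.541), so that it was lowest at 48 h. The models of Cdc20 and Elovl1 share 16 bp on opposite strands.

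Within the chromosomal passenger complex, which corrects wrong attachments and guides cell division, the subunit genes differed in the size and the side of their ratios. Birc5, or survivin, had 5.62 RPKM in the uninduced, 4.52 RPKM in the 48 h and 6.24 RPKM in the grown-out library. It was 1.24-fold lower at 48 h (1.16 to 1.33), 1.11-fold higher in grown-out than in uninduced cells (1.04 to 1.19) and 1.38-fold higher in grown-out than in 48 h cells (1.29 to 1.48). The scaffold gene Incenp followed the same order with smaller steps, at 6.69, 6.43 and 7.56 RPKM. Birc5 relative to Incenp was 0.840 in uninduced cells (0.799 to 0.883), 0.704 at 48 h (0.665 to 0.745) and 0.826 after growing out (0.784 to 0.870), so that only the 48 h ratio stood apart.

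The catalytic subunit gene Aurkb had 2.10, 1.88 and 2.37 RPKM in uninduced, 48 h and grown-out cells and was 1.26-fold higher in grown-out than in 48 h cells (1.12 to 1.42). Cdca8, or borealin, went against its partners, 1.11-fold higher at 48 h (1.03 to 1.20) and 1.14-fold lower in grown-out than in 48 h cells (1.04 to 1.23). Aurka relative to Aurkb was 0.898 in uninduced cells (0.817 to 0.988), 1.14 at 48 h (1.03 to 1.254) and 0.758 after growing out (0.685 to 0.840). Aurka was thus the more transcribed of the Aurora kinase genes in the 48 h library only.

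**Figure D4:**
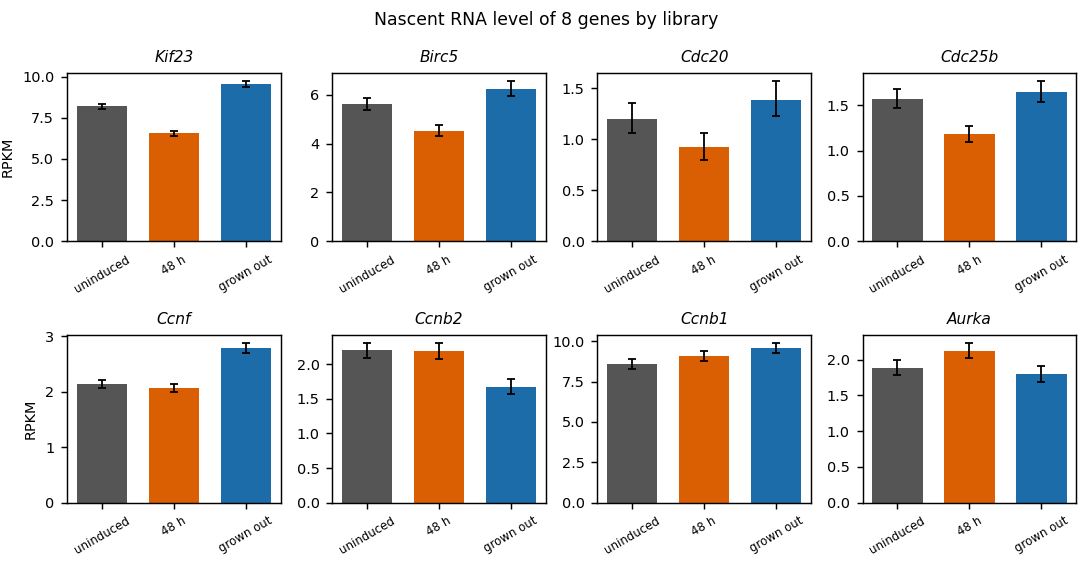
Level (RPKM, bars from 0, with 95% Poisson intervals) of Kif23, Birc5, Cdc20, Cdc25b, Ccnf, Ccnb2, Ccnb1 and Aurka in the uninduced, 48 h and grown-out library. Kif23, Birc5, Cdc20 and Cdc25b are lowest at 48 h, Ccnf is highest and Ccnb2 lowest in grown-out cells, and Aurka is highest at 48 h.

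Of the 5 centromere and kinetochore genes, 4 were lower and 1 higher in grown-out than in uninduced cells beyond counting error, against 29.5% and 33.6% of all measured genes. The 27 further kinetochore genes measured did not share this: 25.9% were lower and 25.9% higher, with a median log2 ratio of 0.02. Cenpa, the histone variant that marks the centromere, had 5.57, 5.07 and 5.16 RPKM in uninduced, 48 h and grown-out cells and was 1.10-fold lower at 48 h (1.03 to 1.17). Cenpe, a kinetochore kinesin, was 1.16-fold lower at 48 h (1.13 to 1.19), and Cenpf was 1.04-fold lower in grown-out than in uninduced cells (1.01 to 1.08). Ndc80 and Nuf2 encode the subunits that together grip the microtubule, and their genes parted. Ndc80 was 1.17-fold lower in grown-out than in uninduced cells (1.11 to 1.24), whereas Nuf2 was 1.09-fold higher (1.04 to 1.14). Nuf2 relative to Ndc80 was 1.43 in uninduced cells (1.36 to 1.497), 1.58 at 48 h (1.502 to 1.67) and 1.82 after growing out (1.72 to 1.92).

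The mitotic kinesin genes, motors that slide, sort and depolymerise microtubules, were more often lower than higher at 48 h: 6 of 11 were lower (54.5%, against 30.0% of all measured genes) and 1 higher (9.09%, against 30.1%) beyond counting error. In grown-out against 48 h cells, 8 of 11 were higher (72.7%, against 35.6%) and none lower (32.0% of all measured genes were). Kif23, a motor of the centralspindlin complex at the midzone, had 8.20 RPKM in the uninduced, 6.55 RPKM in the 48 h and 9.55 RPKM in the grown-out library. It was 1.252-fold lower at 48 h (1.22 to 1.29), 1.17-fold higher in grown-out than in uninduced cells (1.14 to 1.19) and 1.46-fold higher in grown-out than in 48 h cells (1.42 to 1.498). With the pseudocount its 48 h ratio was just short of 20% lower, so it is not counted as past that size there.

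Racgap1, the partner of KIF23 in centralspindlin, had 5.04, 5.09 and 6.03 RPKM in uninduced, 48 h and grown-out cells. Its 48 h ratio of 1.01 (0.980 to 1.04) showed none of the lower value of Kif23. Kif23 relative to Racgap1 was 1.63 in uninduced cells (1.58 to 1.67), 1.29 at 48 h (1.248 to 1.33) and 1.58 after growing out (1.54 to 1.63). At 48 h the ratio lay below that in the other libraries, whose intervals overlapped.

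Kif14, a motor of cytokinesis, had 1.07, 0.991 and 1.29 RPKM in uninduced, 48 h and grown-out cells and was 1.30-fold higher in grown-out than in 48 h cells (1.24 to 1.37). Kif11, which pushes spindle poles apart, was 1.05-fold lower at 48 h (1.03 to 1.07) and 1.15-fold higher in grown-out than in uninduced cells (1.13 to 1.17). Kif2c was 1.21-fold lower at 48 h (1.12 to 1.32). Kif20b, a motor of cytokinesis, kept within a narrow range, with ratios of 1.03 at 48 h (1.01 to 1.04) and 1.05 in grown-out against uninduced cells (1.03 to 1.07).

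Of the other motors, Kif18a, which damps chromosome movements, was 1.08-fold lower at 48 h (1.05 to 1.11) and 1.08-fold higher in grown-out than in uninduced cells (1.05 to 1.11). Kifc1, a minus-end motor, was 1.17-fold higher in grown-out than in uninduced cells (1.06 to 1.29), and Kif4 was 1.18-fold lower (1.08 to 1.29). The chromokinesin gene Kif22 was 1.10-fold lower at 48 h (1.004 to 1.20). Kif15 and Kif20a were not separated from the uninduced level in either comparison. The model of Kif20a shares 187 bp with Brd8 and 1595 bp with Cdc23 on the opposite strand.

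The spindle assembly genes showed no common direction. Tpx2, which activates Aurora A on the spindle, had 3.73, 3.97 and 4.005 RPKM in uninduced, 48 h and grown-out cells, a ratio of 1.07 at 48 h (1.03 to 1.10) and of 1.07 in grown-out against uninduced cells (1.04 to 1.11). Hmmr, a spindle-bound hyaluronan receptor, was 1.15-fold lower at 48 h (1.11 to 1.20), as was Dlgap5, a microtubule-bundling protein (1.08 to 1.22). Spag5, or astrin, stood at 2.164, 2.17 and 2.12 RPKM, with no ratio separated from no change.

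All 4 cytokinesis genes were higher in grown-out than in 48 h cells beyond counting error, as were 35.6% of all measured genes. Ect2, the exchange factor that switches on RhoA at the cleavage site, was 1.10-fold lower at 48 h (1.08 to 1.12) and 1.15-fold higher in grown-out than in 48 h cells (1.13 to 1.17). Anln, or anillin, which links the contractile ring to the membrane, had 8.27, 7.90 and 9.82 RPKM in uninduced, 48 h and grown-out cells and was 1.24-fold higher in grown-out than in 48 h cells (1.22 to 1.26). Prc1, which bundles midzone microtubules, was 1.16-fold lower at 48 h (1.11 to 1.20). Racgap1 was 1.18-fold higher in grown-out than in 48 h cells (1.15 to 1.22).

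Among genes of chromosome structure, Top2a had 22.7 RPKM in the uninduced, 19.1 RPKM in the 48 h and 20.2 RPKM in the grown-out library. It was 1.19-fold lower at 48 h (1.15 to 1.24) and 1.12-fold lower in grown-out than in uninduced cells (1.08 to 1.17). Mki67, the source of the Ki-67 antigen that coats mitotic chromosomes, had 7.76, 6.49 and 7.24 RPKM in that order and was 1.20-fold lower at 48 h (1.16 to 1.23). These markers of dividing cells were thus lower at 48 h by more than the median of the group, and in grown-out cells each lay between its levels in the other libraries. Cdca2, a phosphatase-targeting protein of anaphase chromosomes, was 1.08-fold lower at 48 h (1.04 to 1.12). Cdca5, or sororin, which protects cohesion, was 1.14-fold higher at 48 h (1.03 to 1.26) and 1.16-fold higher in grown-out than in uninduced cells (1.05 to 1.29).

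Foxm1, the forkhead factor that drives many of these genes in G2, had 1.88 RPKM in the uninduced, 1.84 RPKM in the 48 h and 2.00 RPKM in the grown-out library. None of its ratios left out no change: 1.02-fold lower at 48 h (0.942 to 1.11), 1.06 in grown-out against uninduced cells (0.979 to 1.16) and 1.09 in grown-out against 48 h cells (0.999 to 1.18). A shift inside those bounds was not detectable at this depth.

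The median log2 ratio of the 32 genes with TTTGAA in the promoter window was -0.07 at 48 h and 0.03 in grown-out against uninduced cells. In grown-out against 48 h cells it was 0.07. Over the 10 genes without TTTGAA the medians were -0.10, 0.08 and 0.09 in that order. All measured genes with a window had -0.01, 0.004 and 0.001 with TTTGAA, and 0.007, 0.01 and 0.009 without it. Of the 10, Birc5, Ccnb1, Cenpe and Plk4 hold TTTAAA, and Bub1 and Cdc25b hold TTCGAA. Whether the sets differ was not tested. By span, the 23 G2 and mitosis genes under 20000 bp had medians of -0.07 at 48 h and 0.06 in grown-out against uninduced cells, against -0.09 and 0.03 for the 28 longer ones. Over all measured genes below and above that span, the medians were -0.02 and 0.02 at 48 h. In grown-out against uninduced cells they were -0.01 and 0.02. In grown-out against 48 h cells the medians were 0.03 for the shorter and 0.12 for the longer genes, against 0.02 and 0.01 for all measured genes below and above that span.

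A list of 94 other mitosis genes (condensin, APC/C, cohesin, further kinetochore, spindle, entry and DREAM genes), of which 89 were measured, gave similar medians: -0.06 at 48 h, 0.03 in grown-out against uninduced cells and 0.11 in grown-out against 48 h cells. At 48 h 41 were lower (46.1%, against 30.0% of all measured genes) and 15 higher (16.9%, against 30.1%) beyond counting error, and 3 were at least 20% lower (3.37%, against 10.0%) with none at least 25% higher. The lowest by ratio were Cenpl, a centromere protein, 1.32-fold lower (1.23 to 1.42), Fbxo5, an APC/C inhibitor, 1.27-fold lower (1.18 to 1.37), the condensin gene Ncapd2, 1.27-fold lower (1.21 to 1.34), and Oip5, a loading factor for CENP-A, 1.26-fold lower (1.13 to 1.396). In grown-out against uninduced cells 33 were higher (37.1%, near the 33.6% of all measured genes) and 20 lower (22.5%, against 29.5%), with 5 at least 25% higher (5.62%, against 7.04%) and 3 at least 20% lower (3.37%, against 9.36%).

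The largest shifts of that list in grown-out cells were in centromere genes and in a regulator of the G2 program itself. Cenpt was 1.65-fold lower than in uninduced cells (1.46 to 1.86), Cenpm was 1.41-fold higher (1.21 to 1.65), and Mybl2, the gene of B-MYB, was 1.37-fold higher (1.29 to 1.45), at 1.396, 1.36 and 1.91 RPKM in uninduced, 48 h and grown-out cells. Fam64a was 1.34-fold lower (1.12 to 1.62). Of the 8 measured DREAM and B-MYB genes, 6 were higher and 1 lower in grown-out than in uninduced cells beyond counting error. Over all measured genes 33.6% were higher and 29.5% lower. The median log2 ratio of the 8 genes was 0.23. In grown-out against 48 h cells 51 of the 89 were higher (57.3%, against 35.6% of all measured genes) and 20 lower (22.5%, against 32.0%), and 14 were at least 25% higher (15.7%, near the 12.6%) and 5 at least 20% lower (5.62%, against 8.69%). Cenpm led at 1.62-fold higher (1.38 to 1.92), followed in log2 ratio by Tfdp1, the dimer partner of E2F factors, Spc24, a kinetochore subunit, and Cenpl, at 1.42-fold (1.37 to 1.47), 1.45-fold (1.14 to 1.86) and 1.42-fold (1.32 to 1.53).

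The genes of S phase, which precedes G2, had similar medians, with larger shifts in a few genes. Of 46 listed 44 were measured, with median log2 ratios of -0.06 at 48 h, 0.07 in grown-out against uninduced cells and 0.11 in grown-out against 48 h cells. At 48 h 15 were lower (34.1%, against 30.0% of all measured genes) and 9 higher (20.5%, against 30.1%) beyond counting error. At least 20% lower were 5 (11.4%, close to the 10.0% of all measured genes). E2f2, an activating E2F factor, was 1.60-fold lower at 48 h (1.46 to 1.75), Rrm2, a ribonucleotide reductase subunit, 1.52-fold lower (1.43 to 1.61), Ccne2, an E-type cyclin, 1.38-fold lower (1.26 to 1.51), and Uhrf1, which maintains DNA methylation, 1.35-fold lower (1.28 to 1.43).

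In grown-out against uninduced cells 20 S phase genes were higher (45.5%, against 33.6% of all measured genes) and 4 lower (9.09%, against 29.5%). At least 25% higher were 5 (11.4%, against 7.04%), and none was at least 20% lower (9.36% of all measured genes were). Cdc7, a kinase that fires origins, was 1.401-fold higher (1.31 to 1.49), E2f2 1.35-fold (1.255 to 1.46), Uhrf1 1.30-fold (1.24 to 1.37) and Pola2, a primase-polymerase subunit, 1.30-fold (1.23 to 1.38). In grown-out against 48 h cells 23 were higher (52.3%, against 35.6%) and 5 lower (11.4%, against 32.0%). At least 25% higher were 8 (18.2%, against 12.6%) and at least 20% lower was 1 (2.27%, against 8.69%), and E2f2 passed 2-fold at 2.17-fold higher (1.98 to 2.37). Next came Uhrf1 at 1.77-fold (1.68 to 1.87), Cdc7 at 1.62-fold (1.51 to 1.74) and Ccne2 at 1.58-fold (1.45 to 1.73). No G2 or mitosis gene of the 51 reached 2-fold in any comparison. Whether the lists differ was not tested.

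**Figure D5:**
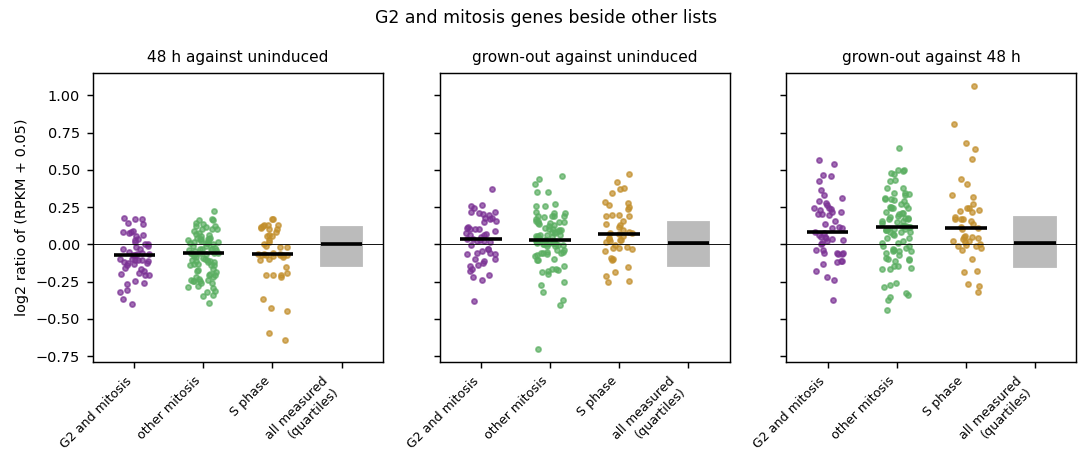
Log2 ratio of (RPKM + 0.05) (vertical axis) in the 3 comparisons, with 1 point per gene for the G2 and mitosis, other mitosis and S phase genes, a grey box for the quartiles of all measured genes, and black lines for medians. The 3 cell cycle lists have medians from -0.07 to -0.06 at 48 h and from 0.08 to 0.11 in grown-out against 48 h cells, whereas the median over all measured genes is within 0.01 of no change.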

How the data were processed

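Bru-seq gave 3 libraries of newly made RNA, 1 per condition. Estimated counts deposited by the authors (reads per whole gene model with introns, per the file headers) are not all whole, and 47.3% to 48.5% of those above 0 were whole within 0.01 of a read. RPKM as deposited by the authors, scaled by model length and library total per the file headers, was the main measure. Another deposited column, a signal of reads per base, was not used. The submitters' processing notes name bedtools 2.16.2, TopHat 1.4.1, Bowtie 0.12.8 and CASAVA 1.8.2, and the human build hg19, although the models are of mouse genes; the build of the models is not given in the sources used here. Reads per base in models nested inside another gene were a median of 0.00124 of the host's on the opposite strand (111 models) and 1.04 on the same strand (42 models), so the counts separate strands.

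Of 22658 models, 138 were left out for a repeated symbol or a span over 3 Mb. A gene was measured at a mean of at least 0.5 RPKM and a deposited length of at least 300 bp. Log2 ratios are of RPKM plus 0.05, and this pseudocount makes the changes of low genes look smaller. Folds are plain RPKM ratios with exact conditional binomial 95% intervals on rounded counts, and levels have exact Poisson 95% intervals (Python 3.11.15, scipy 1.17.1). A count of genes at least 25% higher, 20% lower or past 2-fold needed that log2 ratio and an interval leaving out no change. The interval step was run on simulated counts drawn with counting error only, the error that the interval assumes. That run checked the code and says nothing about spread between libraries. Ratios of 2 genes within a library used the same binomial interval.

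The G2 and mitosis genes and all other lists were chosen with earlier results of these data known. Named were the highest gene of each role, each gene at least 25% higher or 20% lower in a comparison, Cdk1, Ccnb1, Plk1, Aurka, Top2a, Mki67 and Foxm1, and up to 4 genes of each other list per comparison with the largest log2 ratio. Further G2 and mitosis genes are given so that each role is described. Ska2, Ska3 and Bora had no row under those symbols, and Anapc13, Lin37, Pold1 and Pold2 were below the minimum. Alternatives changed the pseudocount, the minimum level, the length minimum, the overlapping models and the scaling (edgeR 4.0.16 TMM, DESeq2 1.42.0 size factors, upper quartile).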

Additional observations from a re-analysis of the deposited data

Results flagged for a closer look

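For 10 of the 51 G2 and mitosis genes, the 48 h and the grown-out library lay on opposite sides of the uninduced library, each beyond counting error. The difference was not tested across samples, since each condition had 1 library, and both ratios share the uninduced library. These calls depend on reads, and the median gene of the 51 held more reads than the median measured gene. The shares over all measured genes given here were not matched for reads. In 9 of them the 48 h library was the lower and the grown-out library the higher (17.6% of the 51, against 8.49% of all measured genes), and in 1 the reverse held (1.96%, against 6.15%). The log2 ratio of grown-out against 48 h cells was 0.54 for Kif23 and 0.37 for Kif14, motors of the midzone and of cytokinesis, 0.27 for Kif11 and 0.21 for Kif18a, spindle motors, 0.31 for Anln and 0.20 for Ect2, of the cleavage furrow, 0.46 for Birc5 and 0.23 for Incenp, of the chromosomal passenger complex, and 0.21 for Ccna2. In Bub1, a checkpoint kinase gene, the 48 h library was the higher and the grown-out library the lower, with a log2 ratio of -0.13.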

How the results depend on the processing

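No paired analysis was possible because each condition had 1 library. The median log2 ratio of the 51 genes kept its sign in each comparison under every alternative run, and lay between -0.09 and -0.05 at 48 h, between 0.02 and 0.06 in grown-out against uninduced cells and between 0.05 and 0.10 in grown-out against 48 h cells. Counts of genes at least 25% higher or 20% lower, small to begin with, were less stable. With a pseudocount of 0.5 the count lower at 48 h was 0 instead of 2, the counts higher and lower in grown-out against uninduced cells were 0 and 0 instead of 1 and 1, and the count lower in grown-out against 48 h cells was 0 instead of 1. With a minimum mean of 2 RPKM, which leaves 36 of the genes, the count lower at 48 h was 0, and the count higher in grown-out against 48 h cells was 4 instead of 7. Without models that overlap another on the same strand, Ccnf drops out and the count higher in grown-out against uninduced cells was 0. Upper-quartile scaling turned Kif20b in grown-out against 48 h cells to a log2 ratio of -0.0026, against 0.03, since that scaling shifts this log2 ratio of every gene by -0.04. Of the other values, 113 counts and medians stayed within 1.5 times or the stated spread, and for single genes 305 kept their call and 6 lost it. Reads limit Cdc20 most, at 198.2 to 272.3 per library.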

Other observations

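In 9 of the 44 promoter windows of the G2 and mitosis genes (20.5%), 2 CCAAT matches lay 31 to 34 bases apart, against 1.20% of all RefSeq windows and 2.10% of those of measured genes. The range was chosen after the positions were seen, so the share is a description. Such a spacing needs at least 2 CCAAT matches, which 52.3% of the windows of these genes hold. That share was 11.7% of all windows and 14.9% of those of measured genes, so part of the difference follows from the number of boxes. The 9 windows with the spacing belonged to Aurka, Ccnb1, Ccnb2, Cdca3, Cdca8, Cdk1, Hmmr, Nek2 and Ube2c, with Ccnb2 holding the spacing of 33 bases between each neighbouring pair of its 3 boxes.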
